A study of Rattus norvegicus with 6 samples.

Results

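The 10 genes described here encode proteoglycans and matricellular proteins of the vessel wall, and were taken as all probe sets whose single gene symbol in the platform annotation was *Dcn*, *Bgn*, *Lum*, *Fmod*, *Vcan*, *Spp1*, *Sparc*, *Mgp*, *Thbs4* or *Tnc*. They had 20 of the 8799 probe sets on the array, and 18 of these were among the 5246 probe sets bright enough to be tested. The 3 runner arrays carried aorta of spontaneously hypertensive rats (SHR), an inbred strain with high blood pressure, after 5 weeks of voluntary running in a wheel cage. The 3 non-runner arrays carried aorta of SHR rats that did not run. Each array held total RNA of 3 pooled aortae, and the labels give neither the sex or age of the rats nor how they were divided among pools. A p-value here thus reflects spread between pools, not between single rats, and that spread may be partly technical. The SE and p-values of limma also draw on a variance shared over all 5246 tested probe sets. They are therefore not the scatter of a single probe set alone. A normotensive strain was not analysed here.

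Proteoglycans are core proteins that carry glycosaminoglycan chains. The small leucine-rich ones (decorin, biglycan, lumican and fibromodulin) bind collagen fibrils and set their spacing and thickness, whereas the large proteoglycan versican binds hyaluronan and swells the space between smooth muscle cells. Matricellular proteins are secreted into the matrix but act mostly as signals to cells through integrins and other receptors, and many of them are made in quantity when an artery is injured or remodels.

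No probe set in the whole comparison passed limma's Benjamini-Hochberg adjusted p of 0.05. The smallest adjusted p on the array was 0.213. A control level of 40.8 was taken from 19 control probe sets for yeast targets or of sense strand, and an intensity below it is not told apart from background here. Smooth muscle markers were above it on every array for 6 of 6 genes measured, and their summed intensity was 12137 to 13180 in runners and 12616 to 14497 in non-runners. Fibroblast markers were above it on every array for 5 of 7 genes, with sums of 9270 to 9877 in runners and 8906 to 10400 in non-runners. Of 8 cartilage, bone and tendon markers, 6 (*Acan*, *Bglap*, *Col2a1*, *Col9a1*, *Comp* and *Ibsp*) were below it on every array. Macrophage markers summed to 1111 to 1439 in runners and 1065 to 1315 in non-runners, with *Csf1r* and *Itgam* below the control level on every array. Endothelial markers summed to 338 to 404 in runners and 398 to 493 in non-runners, and brown fat markers to 1606 to 2790 and 1460 to 2846. Nerve and Schwann cell markers (1092 to 1304 in runners, 1448 to 1659 in non-runners) and blood transcripts (2393 to 4671 in runners, 1663 to 2150 in non-runners) did not overlap between the groups. At an unadjusted limma p of 0.05, 3 of 5 endothelial and 3 of 7 nerve genes tested were lower in runners. For blood, 3 of 5 genes were higher. Of all tested probe sets, 8.1% passed that p in either direction. The endothelial marker *Pecam1* had 184.4, 167.1 and 161.4 in runners and 195.1, 79.2 and 126.3 in non-runners, which overlapped. Its mean was higher in runners, as was that of *Kdr*, which lay below the control level on every array. The part of these other cells in the members' values was not tested. In bulk tissue, fewer cells of a type and less RNA per cell cannot be told apart.

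Array non-runner B stood apart. Its ratio of 3' to 5' beta-actin probe sets, a sign of RNA integrity and labelling, was 2.14, against 1.22 to 1.67 on the other arrays, and its GAPDH ratio was 1.95 against 1.11 to 1.39. By group, the beta-actin ratio was 1.31 ± 0.11 for runners and 1.70 ± 0.43 for non-runners (SD over n = 3 each, exact permutation p = 0.3). The GAPDH ratio was 1.17 ± 0.06 for runners and 1.52 ± 0.38 for non-runners (SD over n = 3 each, exact permutation p = 0.1), and every runner array lay below every non-runner array. The nearest GAPDH ratios were 1.222 on runner B and 1.223 on non-runner A. The beta-actin ratios overlapped, with non-runner A (1.28) below runner B (1.43). Only the GAPDH ratio thus split the groups, and the part of RNA quality in the results was not tested. The brightest tested probe set of each member is given below with and without non-runner B. With 3 arrays against 3, an exact permutation test cannot go below p = 0.1.

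Of the 20 member probe sets, 16 were above the control level on every array, and no member passed the test between runners and non-runners. Of the 18 tested probe sets, 0 passed an adjusted p of 0.05, as did 0.0% of all probe sets tested. At an unadjusted limma p of 0.05 the members again counted 0, against 8.1% of all probe sets (200 higher and 225 lower in runners). On normalized log2 values the groups did not overlap in 4 of the 18 probe sets (22.2%), against 15.0% of all probe sets. Those 4 were the second *Bgn* probe set, *Lum* and *Spp1*, all higher in runners, and the brightest *Dcn* probe set, lower in runners. With the brightest probe set standing for each gene, 5 genes were above 0 and 5 below. Their median log2 difference, runner minus non-runner, was -0.03, against -0.02 over 3167 genes. A log2 difference within 0.3 either way was found in 8 of the 10 genes and in 76.4% of all genes.

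**Figure D1:**
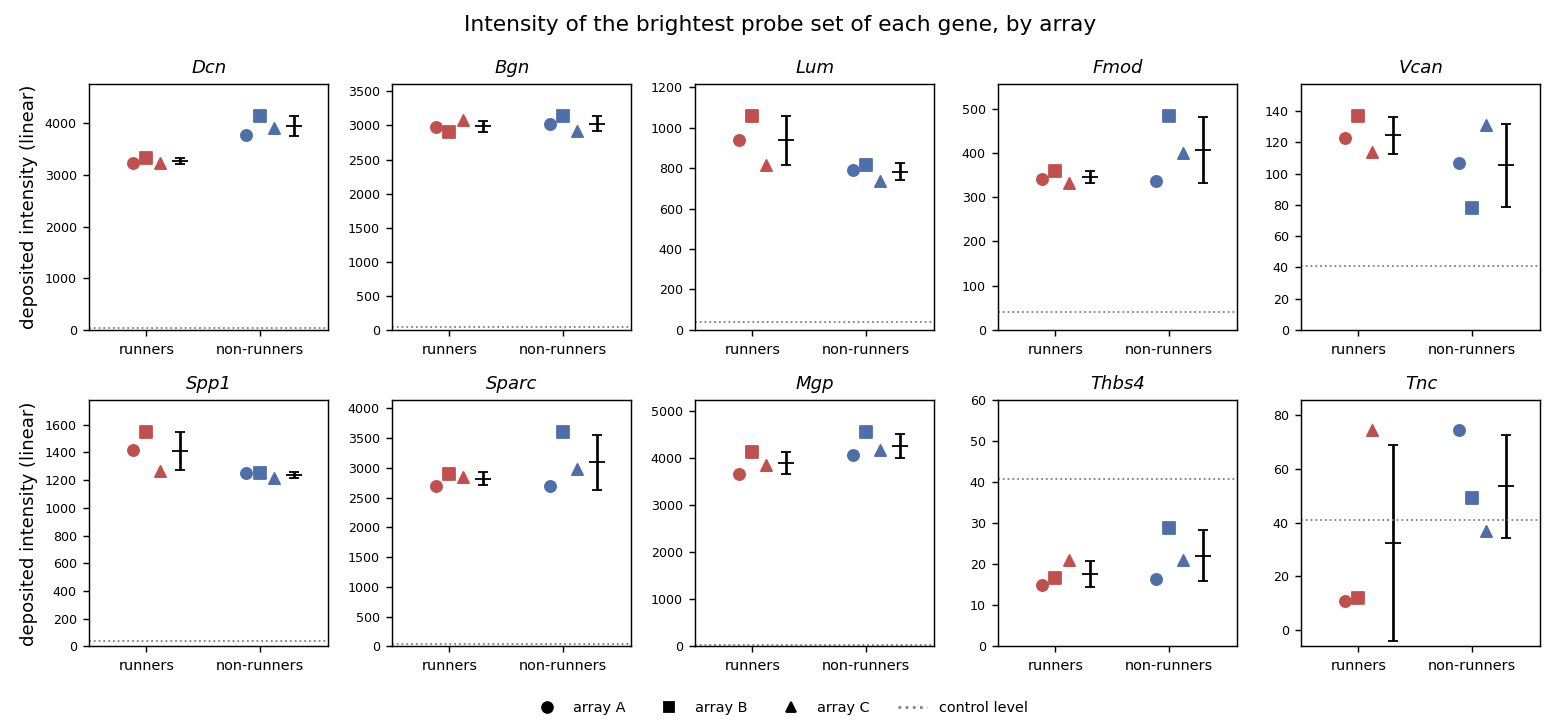
Deposited intensity (linear scale, arbitrary units) of the brightest probe set of each of the 10 genes on 3 runner arrays (left in each panel) and 3 non-runner arrays (right), with points for arrays, bars for the mean ± SD and a dotted line at the control level of 40.8. The runner bar of *Tnc* reaches below 0. *Dcn* lies at 3233 to 3334 in runners and 3775 to 4150 in non-runners, *Spp1* at 1268 to 1545 in runners and 1216 to 1255 in non-runners, and the other 8 panels overlap.

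Among the small leucine-rich proteoglycans, decorin, which binds collagen and holds transforming growth factor beta, had 4 probe sets. On the brightest (X59859_i_at) the intensities were 3232.7, 3333.7 and 3236.7 in runners, against 3774.7, 4149.7 and 3917.1 in non-runners. Every runner pool was below every non-runner pool. The means were 3268 ± 57.2 in runners, against 3947 ± 189 in non-runners (SD, n = 3 each). The limma log2 difference after quantile normalization was -0.17 ± 0.14 (SE; 95% interval -0.49 to 0.14; adjusted p = 0.757). That SE also draws on the variance shared over all tested probe sets, so it is not the scatter of these pools alone. Without non-runner B the difference was -0.14, and without between-array normalization -0.27. The second probe set (Z12298cds_s_at) gave 2445.7, 2486.4 and 2449.9 in runners and 2386.5, 2691.6 and 2542.6 in non-runners. Here the groups overlapped, and the log2 difference was 0.01 ± 0.13 (SE, limma adjusted p = 0.986). The remaining probe sets were far dimmer and overlapped as well, at 213.4 to 348.1 (rc_AI639233_s_at) and 132.8 to 222.5 (X59859_r_at) over the 6 arrays. Their log2 differences were 0.06 ± 0.21 and 0.12 ± 0.21 (SE). The lower value in runners thus stood on 1 of the 4 *Dcn* probe sets, which were not equally bright.

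Biglycan, the closest relative of decorin and a ligand of Toll-like receptors when released from matrix, had 2 probe sets. The brightest (U17834_at) read 2978.3, 2900.4 and 3075.2 in runners and 3021.9, 3142.2 and 2919.7 in non-runners. The groups overlapped fully, with a log2 difference of 0.04 ± 0.14 (SE; 95% interval -0.28 to 0.36; limma adjusted p = 0.954), and was 0.07 without non-runner B and -0.02 without between-array normalization. The second (rc_AA859830_s_at) read 1443.3, 1555.9 and 1660.9 in runners and 1350.6, 780.4 and 1234.5 in non-runners. All runners were above all non-runners there, and the lowest value was that of non-runner B. Its means were 1553 ± 109 in runners, against 1122 ± 301 in non-runners (SD, n = 3 each), a log2 difference of 0.51 ± 0.22 (SE; 95% interval -0.01 to 1.03). This was the smallest p of any member, 0.0529 by limma and 0.62 after adjustment. The log2 difference was 0.27 without non-runner B and 0.17 ± 0.19 (SE) with the beta-actin ratio as a covariate.

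Fibromodulin, which promotes the early steps of collagen fibril growth, also had 2 probe sets, and these had opposite signs. On the brightest (X82152_at) runners had 341.0, 359.3 and 333.0, against 336.7, 483.8 and 398.6 in non-runners, a log2 difference of -0.23 ± 0.18 (SE, limma adjusted p = 0.757). On the other (rc_AI111481_s_at) runners had 209.4, 204.3 and 209.2, against 186.5, 103.1 and 206.5 in non-runners, a log2 difference of 0.39 ± 0.26 (SE, limma adjusted p = 0.726). Non-runner B was the highest array on the first and the lowest on the second. Without it the differences were -0.08 and 0.08.

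Lumican, which limits the sideways growth of collagen fibrils, and osteopontin (*Spp1*), an acidic glycoprotein that binds integrins and CD44 and inhibits calcification of arteries, were the members that moved together most closely from array to array. *Lum* (X84039_at) had 940.4, 1058.7 and 815.0 in runners and 792.1, 816.1 and 734.3 in non-runners. The deposited values met at 1 point, where runner C lay just under non-runner B, whereas after normalization all runners were above all non-runners. The means were 938 ± 122 in runners, against 781 ± 42.0 in non-runners (SD, n = 3 each), with a log2 difference of 0.28 ± 0.15 (SE; 95% interval -0.08 to 0.63; limma adjusted p = 0.681). *Spp1* (M14656_at) had 1415.1, 1545.0 and 1267.9 in runners and 1254.8, 1249.2 and 1215.6 in non-runners. All runners were above all non-runners on both scales, and the runners were more spread out. The means were 1409 ± 139 in runners, against 1240 ± 21.2 in non-runners (SD, n = 3 each), with a log2 difference of 0.20 ± 0.14 (SE; 95% interval -0.13 to 0.53; limma adjusted p = 0.747). Leaving out non-runner B gave 0.29 for *Lum* and 0.20 for *Spp1*, and the beta-actin covariate gave 0.32 and 0.21. Leaving out runner B, the highest array for both, gave 0.19 for *Lum* and 0.13 for *Spp1*.

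Both genes were highest on runner B, next on runner A and lower on the other 4 arrays. Over the 6 arrays their normalized log2 levels had a Pearson r of 0.991 (exact permutation p = 0.00278, and 0.0778 after adjustment over the 28 pairs of 8 member genes above the control level throughout). Spearman's rho was 0.943 (exact permutation p = 0.0167, adjusted 0.467), so neither passed the adjustment. The r was 0.979 without the 2 arrays farthest from the median of *Lum*, 0.977 after the group means were removed, and 0.998 without non-runner B. By Pearson r over the 6 arrays, each was the other's closest gene among the 3166 other genes on the normalized scale. On log2 of the deposited intensities each ranked second for the other (r = 0.986), behind *Mmp12*, a macrophage elastase. *Mmp12* had 27.5, 31.5 and 23.9 in runners and 22.7, 23.8 and 21.7 in non-runners, all below the control level. The summed macrophage markers were also highest on runner B (1439), but second on non-runner A (1315). Their part in this pattern was not tested.

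The genes lie on different chromosomes, and the sequences around their starts are shown because these were the 2 members whose levels ran most nearly in parallel. Each is the RefSeq window of 250 bases before to 50 bases after the annotated start in assembly GRCr8, written 5′ to 3′ on the gene's strand. *Lum* is at chr7:34245456-34245755 on the plus strand and *Spp1* at chr14:5619755-5620054 on the minus strand. Capitals mark matches to TATAAA or CCAAT, each searched on both strands.
Lum: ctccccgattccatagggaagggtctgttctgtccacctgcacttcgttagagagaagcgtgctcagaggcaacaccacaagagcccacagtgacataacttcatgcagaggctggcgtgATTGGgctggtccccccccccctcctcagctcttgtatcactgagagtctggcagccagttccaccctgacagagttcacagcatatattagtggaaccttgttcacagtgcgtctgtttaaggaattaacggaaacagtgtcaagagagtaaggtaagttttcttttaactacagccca
Spp1: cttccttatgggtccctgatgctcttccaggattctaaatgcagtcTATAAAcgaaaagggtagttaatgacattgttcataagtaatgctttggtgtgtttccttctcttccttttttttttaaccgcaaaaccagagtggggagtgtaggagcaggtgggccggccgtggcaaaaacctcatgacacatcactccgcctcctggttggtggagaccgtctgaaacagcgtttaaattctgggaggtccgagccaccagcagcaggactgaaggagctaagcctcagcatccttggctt
The *Lum* window held 1 CCAAT match on the opposite strand, starting at base 121 of the window, and no TATAAA match. The *Spp1* window held 1 TATAAA match on the gene's strand at base 47 and no CCAAT match. Of 33469 such windows, 14.2% held TATAAA and 37.5% held CCAAT. The letters of the AP-1 motif, TGANTCA, occurred in neither window and in 7.33% of all windows, so none of the motifs searched was present in both. These matches describe letters only. In the gene order of the same assembly, *Dcn* and *Lum* are next to each other on chromosome 7, and *Spp1* lies beside *Mepe*, *Ibsp* and *Dmp1*, other genes of its acidic glycoprotein family. The neighbours *Dcn* and *Lum* had differences of opposite sign, -0.17 and 0.28 on the log2 scale.

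**Figure D2:**
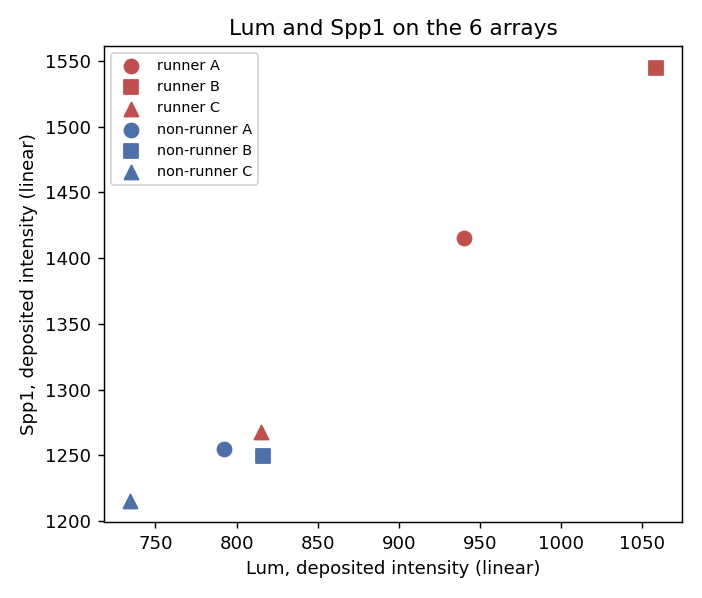
Deposited intensity (linear scale, arbitrary units) of *Lum* (horizontal axis) against *Spp1* (vertical axis), 1 point per array, with runners and non-runners marked and axes that do not start at 0. The 6 arrays lie near a line, with runner B highest on both axes. The Pearson r of 0.991 in the text is that of the normalized log2 levels, which are not drawn here.

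The other pairs of members were less close. *Fmod* and *Sparc* had r = 0.914 over 6 arrays, which was 0.438 without non-runner B. *Dcn* with *Fmod* gave 0.726 (0.351 without that array), *Dcn* with *Sparc* 0.51 (-0.52 without it) and *Vcan* with *Spp1* 0.486 (0.447 without it). The lowest values were those of *Vcan* with *Sparc* (-0.714), with *Dcn* (-0.665) and with *Fmod* (-0.656). Without non-runner B these were 0.699, -0.188 and 0.691, so the signs with *Sparc* and *Fmod* rested on that array. All share the same 6 pools and are given as a description.

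Versican had 1 probe set (AF072892_s_at), with 122.6, 137.1 and 113.7 in runners and 106.8, 78.0 and 131.4 in non-runners. The groups overlapped, and the lowest value was on non-runner B. The means were 124.5 ± 11.8 in runners, against 105 ± 26.7 in non-runners (SD, n = 3 each), a log2 difference of 0.27 ± 0.21 (SE; 95% interval -0.22 to 0.75; limma adjusted p = 0.757). It was 0.07 without non-runner B and 0.44 without non-runner C.

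Of the other matricellular members, *Sparc* encodes osteonectin, a collagen-binding protein that chaperones collagen into the matrix, and it had 4 probe sets. The brightest (rc_AA946313_s_at) gave 2704.5, 2904.1 and 2853.6 in runners and 2697.8, 3598.4 and 2986.2 in non-runners. The runner pools lay inside the range of the non-runner pools, whose highest was non-runner B, and the log2 difference was -0.06 ± 0.15 (SE, limma adjusted p = 0.934). The next (Y13714_at) and the dimmest (rc_AA891204_s_at) gave -0.06 and -0.11, again with non-runner B highest. The third (rc_AA892248_at) gave 1990.5, 1727.0 and 1598.4 in runners and 1782.4, 1047.6 and 2143.7 in non-runners, with non-runner B lowest and a log2 difference of 0.16 ± 0.27 (SE, limma adjusted p = 0.887). Without non-runner B the 4 differences were 0.05, 0.08, -0.15 and 0.00, in order of falling intensity, so 3 of them turned sign.

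Matrix Gla protein, the vitamin K-dependent inhibitor of arterial calcification, is made by vascular smooth muscle cells. *Mgp* (rc_AI012030_at) had 3668.6, 4137.0 and 3860.3 in runners and 4054.9, 4546.5 and 4167.3 in non-runners. The groups overlapped, with means of 3889 ± 235 in runners, against 4256 ± 258 in non-runners (SD, n = 3 each). The log2 difference was 0.01 ± 0.14 (SE; 95% interval -0.32 to 0.33; limma adjusted p = 0.99) after quantile normalization, -0.13 without it and 0.02 without non-runner B. For the 97 probe sets with a mean intensity over 2000, quantile normalization raised the difference by a median of 0.07. It moved the median over all tested probe sets by -0.01.

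Thrombospondin 4, a matricellular protein, and tenascin C, which loosens cell adhesion and is known for its return in injured arteries, were at or near the control level. *Thbs4* (X89963_at) had 15.0, 16.8 and 21.1 in runners and 16.5, 28.9 and 21.0 in non-runners, all below it, so its log2 difference of -0.31 (limma adjusted p = 0.747; -0.10 without non-runner B) compares values not told apart from background. *Tnc* had 3 probe sets, and 2 of them (U15550_at and U09401_s_at) were below it on every array, at 0.7 to 4.7 in runners and 0.7 to 11.7 in non-runners, and were left out of the test. The remaining one (U09361_s_at) had 11.0, 11.9 and 74.3 in runners and 74.3, 49.0 and 37.0 in non-runners. It was above the control level on 1 runner array and 2 non-runner arrays, and the value of runner C equalled the highest non-runner value. The log2 difference was -1.16 ± 0.62 (SE; 95% interval -2.59 to 0.27; limma adjusted p = 0.659), the largest in size and the least precise of the members. Without runner C the difference was -1.97 (unadjusted limma p of 0.000203, adjusted p = 0.292), without runner A or runner B it was -0.76 or -0.75, and without non-runner B it was -1.18.

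**Figure D3:**
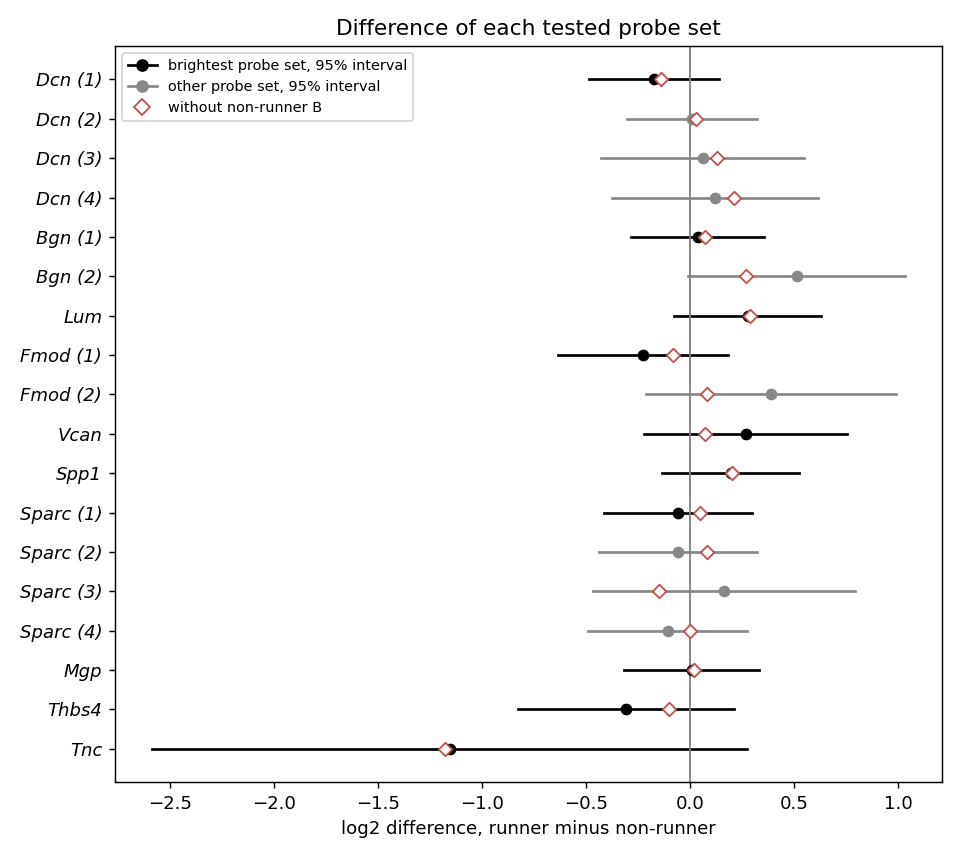
Log2 difference of each of the 18 tested probe sets, runner minus non-runner, with 95% intervals from limma, where probe sets of a gene are numbered by falling mean intensity and open diamonds leave out non-runner B. Every interval crosses 0, the second *Bgn* probe set comes nearest to excluding it (-0.01 to 1.03), and *Tnc* has the widest (-2.59 to 0.27).

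On *Fmod* and *Sparc*, non-runner B departed from the other non-runners in opposite ways on different probe sets of the same gene. Set against the mean of non-runners A and C, that array was higher by 0.44 log2 units on the first *Fmod* probe set and lower by 0.93 on the second. It was lower by 0.95 on the third *Sparc* probe set while higher by 0.32 to 0.40 on the other 3. On *Bgn* it was lower by 0.72 on the second probe set but higher by only 0.11 on the first. Of the 16 member probe sets above the control level on every array, non-runner B was the highest array in 5 and the lowest in 4 on the normalized scale, and the highest in 8 and the lowest in 4 by deposited intensity. Among all 3212 such probe sets it was the highest in 35.0% and the lowest in 28.6% on the normalized scale. Probe sets of one gene can read different stretches of its transcript, and the stretches read here were not located. Whether RNA integrity accounts for these opposite signs was not tested.

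**Figure D4:**
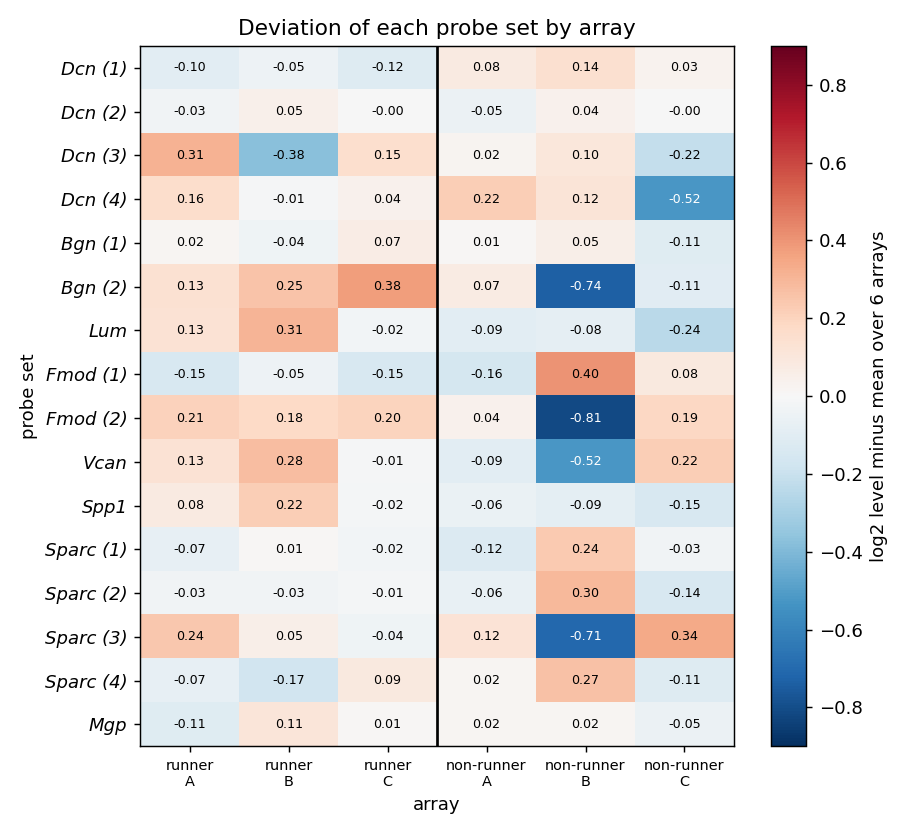
Deviation of each array from the mean of the 6 arrays (normalized log2 units) for the 16 member probe sets above the control level on every array, with runner arrays in the left columns and non-runner arrays in the right, numbered as in the plot of differences. Non-runner B departs in opposite directions on probe sets of *Fmod* and of *Sparc*.

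The wider families gave the same count of calls. Of 62 tested genes in 6 lists of related genes, 0 passed the adjusted limma p of 0.05 in either direction (smallest adjusted p 0.491). At an unadjusted limma p of 0.05, 4 of the 62 were higher and 4 lower in runners, where 8.1% of all tested probe sets passed. Their median log2 difference was -0.04, with 27 above 0 and 35 below. Among other small leucine-rich proteoglycans, both tested genes were below 0. Osteomodulin (*Omd*), a keratan sulfate proteoglycan of bone matrix, had 100.7, 103.3 and 113.7 in runners and 132.7, 308.7 and 150.8 in non-runners, and asporin (*Aspn*) had a log2 difference of -0.19 (-0.05 without non-runner B). All runners were below all non-runners for *Omd* (log2 difference -0.78 ± 0.30, SE, limma adjusted p = 0.577), and without non-runner B, its highest array, the difference was -0.41. Of 15 other proteoglycans 0 were higher and 1 lower at an unadjusted p of 0.05. That gene was *Cd74*, the invariant chain of antigen presentation that can carry chondroitin sulfate, at -0.57 (limma adjusted p = 0.577), with 1 of its 4 probe sets of opposite sign. *Tgfbr3*, a coreceptor for transforming growth factor beta, was at -0.31 (-0.50 without non-runner B), without passing. It was above the control level on 0 of 3 runner and 2 of 3 non-runner arrays, with 1 of its 2 probe sets of opposite sign. The brain proteoglycan *Cspg5* was at -0.59 (-0.50 without non-runner B), also without passing. It was above the control level on 2 of 3 runner and 3 of 3 non-runner arrays. Of 7 other matricellular genes 0 passed in either direction, and *Sparcl1*, the closest relative of *Sparc*, was at -0.15, beside the vitamin K-dependent proteins *Pros1* (-0.19) and *Gas6* (-0.10). Without non-runner B these 3 were at -0.06, -0.07 and 0.01.

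Of 20 receptors and partners, 3 were higher and 1 lower at an unadjusted p of 0.05. Integrin alpha 8 (*Itga8*), which pairs with beta 1 and binds osteopontin and tenascin C, had 396.4, 411.2 and 408.5 in runners and 311.2, 217.6 and 294.9 in non-runners. All runners were above all non-runners, by 0.56 ± 0.18 on the log2 scale (SE, unadjusted limma p of 0.0126, adjusted p = 0.505) and by 0.41 without non-runner B. The PDGF receptor beta (*Pdgfrb*), a mural cell receptor, had 89.3, 65.1 and 108.7 in runners and 55.0, 28.5 and 70.1 in non-runners, which overlapped (log2 difference 0.79 ± 0.32, SE, limma adjusted p = 0.582), and was at 0.45 without non-runner B. *Egfr*, whose product decorin binds, had a log2 difference of 0.62 but lay below the control level on every array. The lower gene was *Tlr4*, a receptor for released biglycan, named after its values were seen. It had 10.1, 11.9 and 20.7 in runners and 17.1, 36.6 and 19.9 in non-runners, all below the control level (log2 difference -0.73, and -0.42 without non-runner B). Of 7 genes of glycosaminoglycan synthesis 1 was lower at an unadjusted p of 0.05, *Xylt2*, which starts the chains by adding xylose. It had 37.2, 35.1 and 38.9 in runners, all below the control level, and 50.3, 57.9 and 47.6 in non-runners, all above it (log2 difference -0.48 ± 0.15, SE, unadjusted limma p of 0.011, adjusted p = 0.491). The sulfate donor enzyme *Papss2* was at -0.36 (-0.16 without non-runner B) and the heparan sulfotransferase *Ndst1* at 0.45 (0.09 without it), without passing. *Ndst1* was above the control level on 2 of 3 runner and 0 of 3 non-runner arrays. Of 11 proteases and inhibitors 1 was higher at an unadjusted p of 0.05, the plasminogen activator *Plau* (log2 difference 0.47), which was above the control level on 1 of the 6 arrays. *Timp3*, the matrix-bound inhibitor of metalloproteinases and ADAMTS enzymes, had 274.0, 283.4 and 317.8 in runners and 280.2, 128.8 and 188.4 in non-runners. These overlapped, with a log2 difference of 0.61 ± 0.27 (SE, limma adjusted p = 0.62), which was 0.33 without non-runner B. *Mmp7* was at 0.68, with every array below the control level.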

How the data were processed

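RNA of pooled aortae was measured on 6 single-colour Affymetrix rat arrays, 1 linear intensity per probe set and array in the authors' deposited table. No source used here names the software that made them. With 2% left out at each end, every array averaged 100.1, as scaling to a common target would give. The deposited table holds no detection calls or probe-level background, arrays have no read depth, and their number limits the precision. The platform annotation gave a single symbol to 7006 probe sets, several to 308 and none to 1426. Gene IDs of 6985 matched the GRCr8 gene table, which changed 0 symbols.

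Values were analysed as log2(intensity + 2.4), computed from the deposited intensities, the pseudocount being the 10th percentile of positive values, so differences of dim genes are understated. Array medians differed 1.13-fold (28.5 to 32.2), over a 10% limit, so log2 values were quantile normalized. Leaving out 59 controls and, by mean intensity, the dimmest 40% of the remaining probe sets left 5246. Runners were compared with non-runners by limma 3.58.1 (lmFit, eBayes; R 4.3.3), two-sided, adjusted over all 5246 by Benjamini-Hochberg at 0.05. The script was tested on simulated data. Figures used matplotlib 3.10.9, and correlations scipy 1.17.1. The brightest probe set by mean over all arrays stood for a gene. By rule all 10 members were named, up to 3 genes of each related list with the smallest p, and the member pairs with the 5 highest and 3 lowest correlations. The members and lists were chosen with earlier results of these data known. Chip letters were not used to pair the arrays in the main fit. The labels do not say whether a letter marks a shared batch, and runner titles also carry the letters D, E and F. Same-letter deviations from group means correlated at -0.09, -0.03 and -0.06, which cannot settle whether a batch was shared. Alternatives were the pseudocount, normalization, filter, moderation, array weights, beta-actin covariate, chip letter as block, mean of probe sets and leaving out each array.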

Additional observations from a re-analysis of the deposited data

How the results depend on the processing

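With 6 arrays, 0 probe sets were called under every alternative fitted. Leaving out 1 array gave 0 to 5 calls higher in runners (5 without non-runner C, 2 without non-runner A) and 0 to 1 lower (1 without non-runner A). The members and the related genes had 0 calls under every alternative with a test, which leaves out the average over probe sets. The members' count of 0 at an unadjusted limma p of 0.05 did depend on the setting. The second *Bgn* probe set passed with pseudocount 16, with the dimmest 60% left out, with an intensity trend in the variance and without non-runner A. *Lum* passed with array weights, *Thbs4* without non-runner A and *Tnc* without runner C. Of 178 member-gene values under alternatives, 164 kept their sign and 14 turned it, and of the 168 with a test 0 became called. The members' median log2 difference was -0.13 without between-array normalization, -0.18 with median centring and 0.044 when all tested probe sets of a gene were averaged, against -0.03 as reported. Median centring moved the median of all probe sets to -0.05. *Bgn* was -0.021 without normalization, -0.072 with median centring and -0.013 to 0.074 with 1 array left out. *Mgp* was -0.13, -0.182 and -0.043 to 0.067 in the same settings. *Sparc* was 0.095 with the beta-actin covariate, 0.009 with array weights and -0.127 to 0.051 with 1 array left out. *Fmod* was 0.018 and *Thbs4* 0.014 (-0.31 as reported) with the covariate, and averaging probe sets gave 0.082 for *Fmod* and 0.004 for *Dcn*. With 1 array left out, *Fmod* was -0.36 to -0.08 and *Thbs4* -0.52 to -0.10. The cause of these turns was not tested. The chip letter as a replicate block gave 0 calls, 362 probe sets at an unadjusted limma p of 0.05 and a members' median of -0.03. Intensities below the control level of 40.8 (*Thbs4*, most of *Tnc*) limit what can be said of those genes.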
